A study of Saccharomyces cerevisiae with 24 samples.

Results

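Replacing leucine 35 of the yeast m6A reader Pho92 by alanine was compared with wild-type Pho92, both expressed from the same copper-inducible promoter in meiotic cultures. The comparison holds 6 of the 24 libraries of the series, chosen by their titles: 3 of the L35A strain and 3 of the strain with wild-type Pho92, here called CUP1-PHO92. All 6 came from Saccharomyces cerevisiae diploids (MATa/alpha) that carry trp1::hisG, his3::hisG, leu2::hisG, ura3 and lys2, with ho::LYS2, as do the other groups. In both strains the endogenous gene was replaced (hyg::pho92), and an HA-tagged PHO92 behind the CUP1 promoter sat at trp1 (trp1::CUP1-HA-PHO92, with or without L35A). Cells were moved from acetate growth medium to sporulation medium, and 50 µM copper sulfate was added to every culture 3 h later. The labels give no time of collection after the copper.

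The other groups used for comparison had 3 libraries each and the same copper treatment. Δ35–42, L38P, I39A and W177A are the same CUP1 construct with residues 35 to 42 removed or the named residue replaced. WT has the unaltered PHO92 locus, and pho92Δ (pho92::HYG) has no PHO92. W177 lies in the YTH domain. The genotype label of the I39A group reads L39A, while its titles read I39A and codon 39 of the reference encodes isoleucine. Each group carries a single strain number in the table's header, so each appears to be 1 strain, although W177A carries the number of CUP1-PHO92. The labels do not say whether the replicates of a group came from separate cultures of separate days. P-values therefore measure the spread between these libraries, which may be technical.

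Pho92 is the YTH-domain protein of budding yeast. It binds N6-methyladenosine, a mark that the Ime4-containing methyltransferase places on mRNA when diploid cells starve and enter meiosis, and it is known to promote decay of marked transcripts through the CCR4-NOT deadenylase. Its amino-terminal part, outside the YTH domain, is intrinsically disordered, and the series tests a short stretch of it. That stretch is printed because 4 of the strains differ in it. In the RefSeq assembly R64 it is encoded at chrIV:1224257-1224304 on the minus strand, inside the PHO92 coding sequence. The line gives codons 31 to 46 of 307, the stop codon included, with codons 35 to 42, the segment removed in Δ35–42, in capitals.
PHO92 codons: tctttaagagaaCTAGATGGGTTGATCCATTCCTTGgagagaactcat
Codon 35, replaced in L35A, is the cta at the start of the capitals. Codons 38 and 39, replaced in L38P and I39A, are ttg and atc.

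The libraries had 16108079, 20459732 and 18167370 counts in CUP1-PHO92 and 20830263, 19899096 and 24707874 in L35A. Levels are in CPM, counts scaled to a common library size with TMM factors, fold changes are log2 values of L35A against the group named, and errors of fold changes are standard errors (SE). Features counted as called had a Benjamini-Hochberg adjusted p under 0.05 in edgeR's quasi-likelihood test, fitted to all 24 libraries. Markers of early meiosis were expressed in all 6 libraries. Middle meiotic genes, described below, were expressed as well, to an extent that differed between libraries. The 7 early meiotic markers IME1, IME2, SPO11, REC8, HOP1, ZIP1 and DMC1 summed to 14900 to 18400 CPM in CUP1-PHO92 and 17770 to 20190 CPM in L35A. The 6 mitotic markers CLN1, CLN2, PCL1, DSE1, DSE2 and CTS1 summed to 139.5 to 152.5 CPM in CUP1-PHO92 and 148.3 to 154.3 CPM in L35A. The 22 haploid and mating-type genes summed to 443.1 to 506.3 CPM and 552.7 to 613.6 CPM. Levels within this list differed. The pheromone genes MFA1 and MFA2 were at or under 0.499 CPM in all 6, and MFA2 had no count in replicate 1 of CUP1-PHO92. MF(ALPHA)1 had 5.66 to 8.013 CPM, AXL1 58.85 to 72.74 CPM and SAG1 73.63 to 123 CPM, so the list was not silent.

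PHO92 (YDR374C) itself was not called different. It had 16420, 11670 and 9970 CPM in CUP1-PHO92 and 11550, 10790 and 9771 CPM in L35A. The ranges overlap, and the fold change was -0.25 (SE 0.267, adjusted p 0.534). The transcript counts do not show how much protein was made. CUP1-1 (YHR053C), the copper metallothionein driven by the promoter used here, had 1323, 968.5 and 1274 CPM against 1085, 1055 and 920.4 CPM in L35A, a fold change of -0.22 (SE 0.224, adjusted p 0.502). TRP1 (YDR007W), the gene at which the construct sits, differed. It had 8.18, 5.60 and 8.91 CPM in CUP1-PHO92 and 16.0, 16.5 and 16.3 CPM in L35A, a fold change of 1.11 (SE 0.208, adjusted p 0.00125). The TRP1 means of the other groups were 18.17 CPM in WT, 21.73 CPM in pho92Δ, 26.62 CPM in L38P and 23.75 CPM in W177A. They were 11.05 CPM in Δ35–42 and 8.83 CPM in I39A, so CUP1-PHO92 was among the low groups. Of the tested genes within 3 places of TRP1, SNQ2 was also higher (0.65, SE 0.178, adjusted p 0.013), and RAD57, MAF1, SOK1 and GAL3 were not called. The genes within 3 places of PHO92 were not called.

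The L35A cultures had less mRNA for the ribosomes of the cytosol and of mitochondria than the CUP1-PHO92 cultures. They had more mRNA for storage carbohydrate metabolism, acetate use and several regulators of meiotic entry. Fold changes rose with coding length, as described below, and counts of called genes were not corrected for it unless stated. In bulk RNA, fewer cells of a type and less RNA per cell cannot be told apart. Of 5698 features tested, 1290 were called (22.6%), 642 higher in L35A (11.3%) and 648 lower (11.4%). Changes were mostly under 2-fold, with a median absolute fold change of 0.495 among called features. At least 2-fold changes were made by 16 features that rose and 49 that fell. The 3 L35A libraries lay wholly above the 3 CUP1-PHO92 libraries for 1091 features (19.1%) and wholly below for 1126 (19.8%). Leaving out replicate 1 of L35A gave 707 calls, and leaving out replicate 3 of CUP1-PHO92 gave 714.

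**Figure D1:**
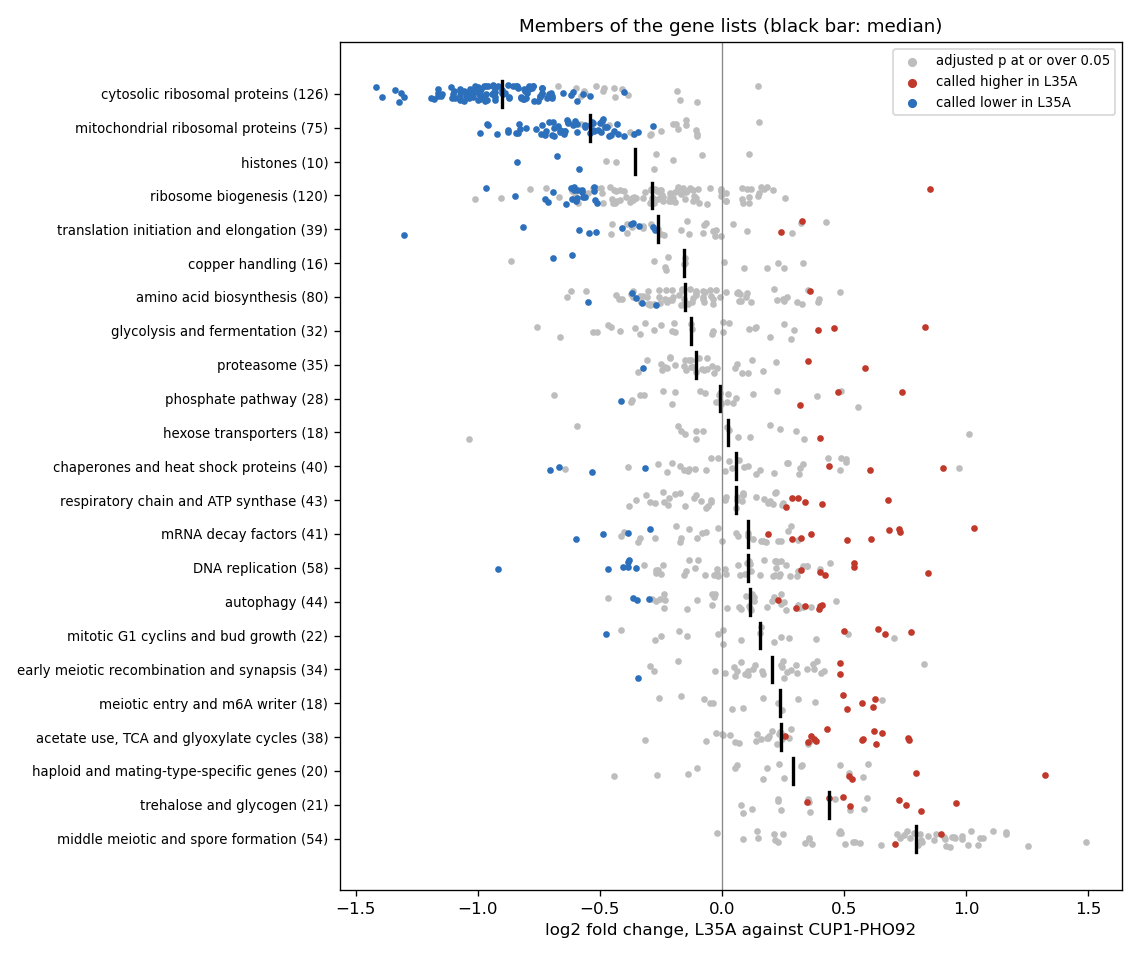
Log2 fold change of L35A against CUP1-PHO92 (x axis) for each tested member of 23 gene lists (y axis, tested members in brackets). Points are genes, coloured where called by edgeR, and black bars are list medians. Cytosolic and mitochondrial ribosomal protein genes lie mostly below 0 and have no member called higher, and the trehalose and glycogen list lies wholly above 0.

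Cytosolic ribosomal protein genes had the largest share of called members among the 23 lists. Of 126 tested, 110 fell and none rose, against 11.4% lower over all features. Their median fold change was -0.90, beside a median of -0.00834 over all features. Summed over the list they held 9667.4, 7640.8 and 9227.5 CPM in CUP1-PHO92 and 4468.7, 4673.3 and 5403.4 CPM in L35A. Every L35A library was thus below every CUP1-PHO92 library. Many of these genes exist as near-identical A and B copies between which reads may be split, so the 19 genes without such a copy were also read alone. Of these, 18 fell, with a median of -0.97. Without replicate 1 of L35A, 73 of the 126 were called lower.

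Of the 7 largest falls by the rule for named genes, 6 were in cytosolic ribosomal protein genes. RPS3 (YNL178W), a protein of the small subunit at the mRNA entry channel, had 150, 105 and 136.9 CPM in CUP1-PHO92 and 45.94, 43.05 and 60.29 CPM in L35A. Its fold change was -1.39 (SE 0.265, adjusted p 0.00138). RPL30 (YGL030W), a large-subunit protein that also represses splicing of its own transcript, had 29.98, 22.49 and 30.88 CPM against 9.644, 9.043 and 12.36 CPM in L35A. Its fold change was -1.42 (SE 0.359, adjusted p 0.00831). For both genes the groups were far apart, and L35A was also below every library of WT, pho92Δ, Δ35–42, L38P and I39A. The W177A libraries overlapped L35A, at 45.95 to 110 CPM for RPS3 and 11.61 to 38.81 CPM for RPL30. Against the same CUP1-PHO92 libraries, W177A had 85 of the 126 cytosolic ribosomal protein genes lower, with a median of -0.67, beside 13% lower over all features. RPS12, RPS7A, RPP2A and RPL1B had fold changes of -1.34, -1.32, -1.31 and -1.303, with adjusted p from 0.000793 for RPL1B to 0.00467 for RPP2A.

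The remaining gene among the 7 was MAM33 (YIL070C), a mitochondrial matrix protein linked to translation in that organelle. It had 79.67, 66.71 and 67.08 CPM in CUP1-PHO92 and 28.36, 29.9 and 32.31 CPM in L35A, a fold change of -1.24 (SE 0.131, adjusted p 5.35e-05). Its level in L35A was close to the means of WT (31.84 CPM), pho92Δ (30.29 CPM) and Δ35–42 (32.15 CPM). The CUP1-PHO92 and L38P means (66.26 CPM in L38P) were the high ones, and I39A (50.08 CPM) lay between.

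**Figure D2:**
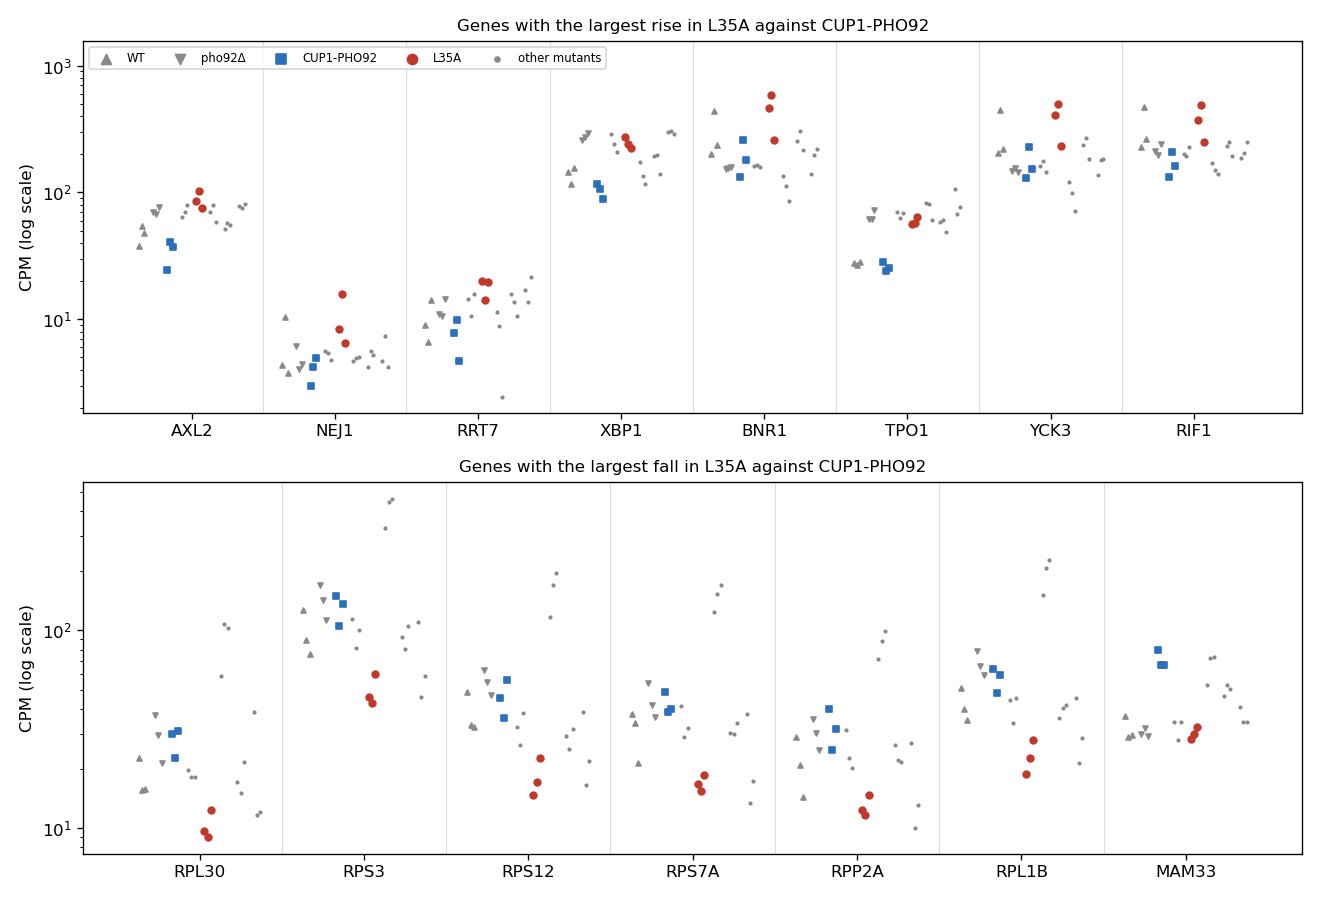
CPM on a log scale of the 8 genes with the largest rise (top) and the 7 with the largest fall (bottom) in L35A, in all 24 libraries. Each point is 1 library, in the order WT, pho92Δ, CUP1-PHO92, Δ35–42, L35A, L38P, I39A and W177A from left to right. For the ribosomal protein genes L35A is at or near the bottom and L38P at the top. For TPO1 and XBP1, CUP1-PHO92 and WT are low. The other mutants are about as high as L35A or higher for TPO1. For XBP1 this holds for pho92Δ, Δ35–42 and W177A, while L38P and I39A lie below L35A.

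Mitochondrial ribosomal protein genes, which build the ribosomes that translate mitochondrial DNA, fell in 58 of 75 cases and rose in none. The share lower over all features was 11.4%, and the median of the 75 was -0.54. Their summed level was 4047.7, 3823.1 and 4142.0 CPM in CUP1-PHO92 and 2842.0, 3150.5 and 2872.5 CPM in L35A, again without overlap. MRPL49 (YJL096W), of the large subunit, had 21.98, 19.6 and 24.01 CPM against 9.799, 12.37 and 10.8 CPM in L35A. Its fold change was -0.99 (SE 0.153, adjusted p 0.000244). Against CUP1-PHO92, 58 of the 75 were also lower in Δ35–42, 49 in W177A and 14 in L38P, where 3 were higher. Over all 5698 features, 568, 740 and 1191 were lower in these 3 strains. In I39A 0 of the 75 were called, but only 3 features were called there over all. Of the 75, 71 had a negative fold change in I39A, with a median of -0.21. On the centred log2 scale CUP1-PHO92 had the highest mean of the 8 groups, 0.367. The means were -0.174 in L35A, -0.0742 in WT and -0.309 in pho92Δ.

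Respiratory chain genes, whose products also work in mitochondria, were not among the falls. Of 43 genes for the respiratory complexes and ATP synthase none fell and 6 rose. The share higher, 14%, was near the 11.3% over all features. The 6 were ATP1, ATP2 and ATP4 of the ATP synthase, COR1 and QCR2 of complex III, and the NADH dehydrogenase NDI1. NDI1 (YML120C) had 399.6, 352.5 and 279 CPM in CUP1-PHO92 and 630.6, 552.3 and 470.2 CPM in L35A, a fold change of 0.68 (SE 0.134, adjusted p 0.00171). The list's median was 0.0589.

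Other lists of protein synthesis held falls as well. In ribosome biogenesis, 21 of 120 fell (17.5%, beside 11.4% lower over all features) and 1 rose, with a median of -0.29. UTP15 (YMR093W), of the small-subunit processome, had 41.87, 47.01 and 62.26 CPM in CUP1-PHO92 and 23.38, 17.53 and 36.25 CPM in L35A, a fold change of -0.97 (SE 0.275, adjusted p 0.017). DBP10 (YDL031W), an RNA helicase, was the gene that rose (0.85, SE 0.221, adjusted p 0.00954). The count of falls was 5 without replicate 1 of L35A, 5 without replicate 2 of L35A, 5 without replicate 3 of CUP1-PHO92 and 44 without replicate 3 of L35A. Its summed level in replicate 3 of L35A, 6291.8 CPM, lay inside the CUP1-PHO92 range of 5744.5 to 6750.8 CPM. Among translation initiation and elongation factors, 11 of 39 fell (28.2%), among them the elongation factors TEF1, TEF4 and EFB1 and the cap-binding protein CDC33. STM1 (YLR150W), which holds idle ribosomes, had 101.4, 72.16 and 91.45 CPM against 44.33, 43.33 and 62.86 CPM in L35A (-0.81, SE 0.162, adjusted p 0.00186). The release factors SUP45 and SUP35 were the 2 that rose (5.13%, beside 11.3% higher over all features).

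**Figure D3:**
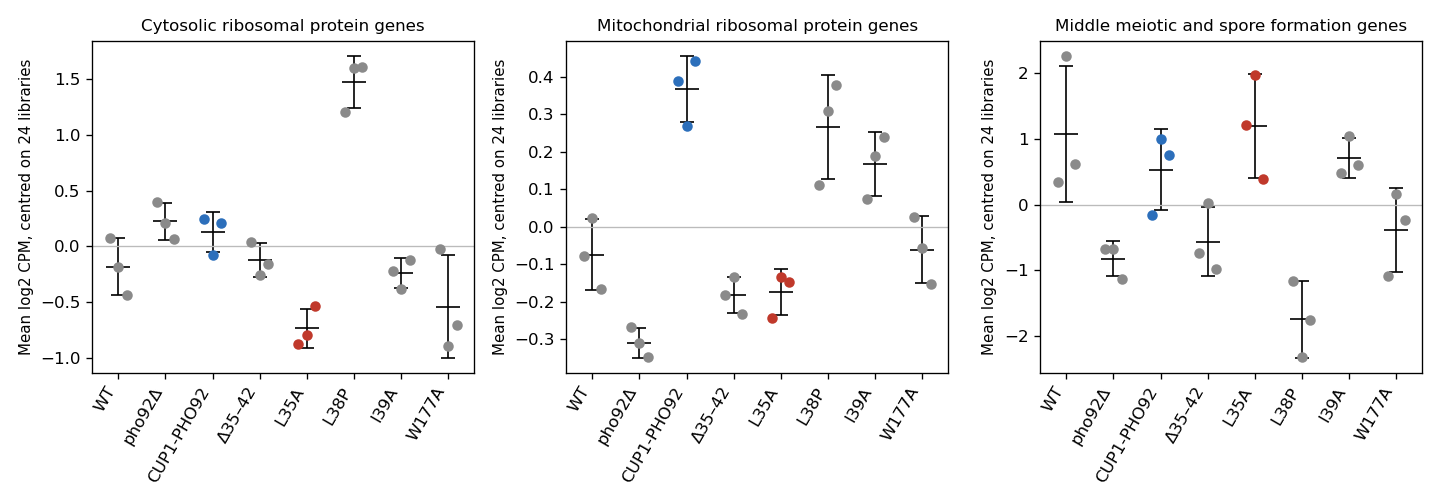
Mean log2 CPM of 3 gene lists in each library, centred on the mean of all 24 (y axis), by group (x axis). Points are libraries, and bars are the mean ± SD of 3. L35A is the lowest group mean for cytosolic ribosomal protein genes, sits with Δ35–42 for the mitochondrial ones, and spreads widely for middle meiotic genes.

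Genes of storage carbohydrate metabolism moved up. Of 21 trehalose and glycogen genes, 8 rose and none fell, against 11.3% higher over all features, with a median of 0.44. The 8 were GDB1, GSY2 and PIG2 for glycogen, TPS2, TPS3 and TSL1 of the trehalose synthase complex, and the trehalases NTH1 and ATH1, so genes of both synthesis and breakdown are among them. GDB1 (YPR184W), the glycogen debranching enzyme, had 652.6, 666.5 and 497.5 CPM in CUP1-PHO92 and 1366, 1137 and 1031 CPM in L35A, without overlap. Its fold change was 0.96 (SE 0.196, adjusted p 0.00223). Without replicate 3 of CUP1-PHO92 the count was 3, and without replicate 1 of L35A it was 4. Against CUP1-PHO92, 7 of the 21 were also higher in Δ35–42, 9 in W177A and 3 in L38P, where 5 were lower. Over all 5698 features, 677, 847 and 1316 were higher in these 3 strains. In I39A 0 of the 21 were called, but only 3 features were called there over all. Of the 21, 20 had a positive fold change in I39A, with a median of 0.36.

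Of 38 genes for acetate use and the TCA and glyoxylate cycles, 13 rose and none fell, with a median of 0.24. The share higher was 34.2%, beside 11.3% over all features. They include the regulators CAT8, ADR1 and SIP4, the glyoxylate enzyme ICL1, the gluconeogenic enzyme PCK1 and the TCA enzymes ACO1, IDH2 and KGD1. CAT8 (YMR280C), the activator of gluconeogenic genes, had 202.6, 214.8 and 164.8 CPM in CUP1-PHO92 and 373.6, 317 and 300 CPM in L35A (0.77, SE 0.145, adjusted p 0.00132). The list took 9.47% to 10.5% of counts in CUP1-PHO92 and 10.7% to 12.6% in L35A. Without replicate 3 of CUP1-PHO92, 5 were called. The count was 6 without replicate 1 of L35A, 7 without its replicate 2 and 8 without replicate 2 of CUP1-PHO92. Against CUP1-PHO92, the acetate list also had 13 members higher in Δ35–42, 17 in W177A and 16 in L38P, where 2 were lower. Over all 5698 features, 677, 847 and 1316 were higher in these 3 strains. In I39A 0 of the 38 were called, but only 3 features were called there over all. Of the 38, 32 had a positive fold change in I39A, with a median of 0.12 for the acetate list. Its mean share of counts was 13.1% in WT and 12.5% in pho92Δ. In glycolysis and fermentation 3 of 32 rose, ADH2, PFK26 and PYK2, and none fell. That share, 9.38%, did not exceed the 11.3% over all features. The largest of these 3 rises, ADH2 (YMR303C; 0.83, SE 0.283, adjusted p 0.04), was not called when any of 5 of the 6 libraries was left out, with adjusted p up to 0.166.

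The genes that start the meiotic program showed a split. IME1 (YJR094C), the master regulator of entry, had 3990, 3724 and 2539 CPM in CUP1-PHO92 and 4185, 4210 and 3645 CPM in L35A (0.23, SE 0.177, adjusted p 0.359). IME4 (YGL192W), the methyltransferase subunit, had 295.2, 291 and 302.6 CPM against 274.5, 259.8 and 256.2 CPM (-0.17, SE 0.0811, adjusted p 0.138). The early kinase gene IME2 (YJL106W) had a fold change of 0.25 (SE 0.17, adjusted p 0.308). None of the 3 was called. Of the 18 genes of meiotic entry and the m6A writer, 5 rose (27.8%, beside 11.3% over all features) and none fell. The 5 were SUM1, UME6, RIM15, RME1 and RIM101. Among them are repressors of meiotic genes (SUM1, UME6), the repressor of IME1 transcription RME1 and the starvation kinase RIM15. SUM1 (YDR310C) had 89.77, 104.1 and 99.74 CPM in CUP1-PHO92 and 147.1, 141.3 and 164.9 CPM in L35A (0.63, SE 0.124, adjusted p 0.00177).

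Few early recombination and synapsis genes were called: 2 of 34 rose (5.88%), RIM4 and MPS3, and 1 fell (2.94%), SKI8. Over all features 11.3% were higher and 11.4% lower. RIM4 (YHL024W), a translational repressor of meiotic mRNAs, had a fold change of 0.48 (SE 0.163, adjusted p 0.0379), but leaving out any of 5 of the 6 libraries ended its call. SKI8 (YGL213C), which serves both mRNA decay and recombination, had 240.2, 248.6 and 241.2 CPM in CUP1-PHO92 and 186.6, 201.5 and 186.7 CPM in L35A (-0.35, SE 0.0844, adjusted p 0.00668).

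Middle meiotic and spore genes varied widely between libraries of the same strain. Their summed level was 6865.1, 15934 and 12886 CPM in CUP1-PHO92 and 19108, 32743 and 10347 CPM in L35A. NDT80 (YHR124W), the activator of this class, had 292.5, 546.4 and 490.2 CPM against 670, 972.3 and 451.3 CPM in L35A (0.66, SE 0.472, adjusted p 0.33). The median of the 54 genes was 0.80, but 2 were called (3.7%, beside 11.3% higher over all features), MPC54 and SPO71, both higher. The median was 0.25 without replicate 2 of L35A. When the main within-group axis of variation was fitted as a covariate, 37 were called higher. That axis was derived from the same expression values, so the 37 are not independent support for a rise. MPC54 (YOR177C), a component of the meiotic spindle pole outer plaque, did not share this spread: 349.6, 370.1 and 294.5 CPM in CUP1-PHO92 and 655.6, 678.4 and 558 CPM in L35A (0.90, SE 0.155, adjusted p 0.000668).

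The 8 largest rises were of mixed function. AXL2 (YIL140W), a membrane protein of bud site selection, had 24.31, 40.35 and 37.17 CPM in CUP1-PHO92 and 85.34, 103.5 and 75.22 CPM in L35A, a fold change of 1.37 (SE 0.166, adjusted p 6.05e-05). XBP1 (YIL101C), a stress-induced transcriptional repressor, had 115.8, 106.2 and 88.89 CPM against 273.5, 242.2 and 223.5 CPM in L35A (1.25, SE 0.159, adjusted p 6.05e-05). TPO1 (YLL028W), a polyamine exporter, had 28.13, 24.18 and 25.14 CPM against 56.31, 57.2 and 64.5 CPM (1.20, SE 0.144, adjusted p 6.05e-05). For XBP1 and TPO1 all L35A libraries were also above WT. The pho92Δ means were 275.8 CPM for XBP1 and 65.56 CPM for TPO1.

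BNR1, YCK3 and RIF1 rose by 1.20, 1.16 and 1.15 on the log2 scale, and within each strain the 3 libraries ranked as they did for NDT80. BNR1 (YIL159W), a formin, had 131.7, 258.2 and 180 CPM in CUP1-PHO92 and 461.5, 591.6 and 259.2 CPM in L35A (SE 0.297, adjusted p 0.00703). YCK3 (YER123W), a vacuolar casein kinase, was not called without replicate 2 of L35A (adjusted p 0.0501 there). NEJ1 (YLR265C), a DNA end-joining gene repressed in a/alpha diploids, had 2.986, 4.199 and 4.967 CPM against 8.399, 15.76 and 6.543 CPM (1.33, SE 0.35, adjusted p 0.0108). It was not called without replicate 2 of L35A or without replicate 1 of CUP1-PHO92. RRT7 (YLL030C) rose by 1.26 (SE 0.387, adjusted p 0.0248), with 4 of 6 left-out fits missing the call.

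The haploid list as a whole had 4 of 20 tested members higher, NEJ1, STE12, FUS3 and SAG1, and none lower. That is 20% higher, beside 11.3% over all features. The receptor genes STE2 and STE3 were not called. The part of haploid cells in any result was not tested.

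Among 41 mRNA decay factors, 10 rose (24.4%) and 4 fell (9.76%), beside 11.3% higher and 11.4% lower over all features. The rises include 3 subunits or partners of CCR4-NOT (CDC39, CAF130 and CAF4), the decapping factors DCP2, DHH1 and SCD6, the exosome cofactors SKI3 and SKI7, and the Puf proteins MPT5 and PUF4. MPT5 (YGL178W), which brings CCR4-NOT to its targets, had 134.3, 199.3 and 101.7 CPM in CUP1-PHO92 and 322.6, 299.2 and 269.1 CPM in L35A (1.03, SE 0.265, adjusted p 0.00907). LSM2, LSM7, UPF3 and the CCR4-NOT subunit CAF40 fell. Counts of rises were 3 without replicate 3, and 4 without replicate 1, of CUP1-PHO92, and 6 without replicate 1 of L35A. MPT5 was not called without replicate 3 of CUP1-PHO92 (adjusted p 0.0626).

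The remaining lists held changes in both directions or few changes. In DNA replication 6 of 58 rose (10.3%) and 7 fell (12.1%), near the 11.3% higher and 11.4% lower over all features. CTF4 (YPR135W), which links helicase and polymerase, rose from 48.56, 44.65 and 49.31 CPM to 83.21, 74.06 and 98.54 CPM in L35A (0.85, SE 0.15, adjusted p 0.00083), and CDC6 (YJL194W), the helicase loader, fell from 20.66, 26.26 and 26.88 CPM to 10.94, 11.04 and 16.98 CPM (-0.92, SE 0.226, adjusted p 0.00692). Of 10 histone genes 3 fell (30%), HTB2, HHF1 and HHF2. Of 22 G1 cyclin and bud growth genes 4 rose (18.2%), among them CLN1, CLN2 and SWI4, and 1 fell (4.55%), NRM1. CLN2 (YPL256C) had 14.51, 18.92 and 16.9 CPM in CUP1-PHO92 and 26.8, 30.62 and 28.82 CPM in L35A (0.78, SE 0.162, adjusted p 0.00252).

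Of 40 chaperone genes 3 rose (7.5%; SIS1, SSA4 and SSE1) and 4 fell (10%; SSB1, HSP10, HSP30 and MDJ1). Neither share exceeded the 11.3% higher and 11.4% lower over all features. SSB1 (YDL229W), the Hsp70 that works on ribosomes, had 274.9, 243.1 and 308.5 CPM against 157.4, 142 and 208 CPM in L35A (-0.70, SE 0.15, adjusted p 0.0029). Of 44 autophagy genes 6 rose (13.6%) and 3 fell (6.82%), beside 11.3% higher and 11.4% lower over all features. Of 80 amino acid biosynthesis genes 1 rose (1.25%) and 5 fell (6.25%), and of 35 proteasome genes 2 rose (5.71%) and 1 fell (2.86%). Of 28 phosphate pathway genes 3 rose (10.7%) and 1 fell (3.57%), also not above the shares over all features. VIP1 (YLR410W), an inositol pyrophosphate kinase, rose by 0.74 (SE 0.108, adjusted p 0.00016), and the phosphate transporter gene PHO90 (YJL198W) fell by 0.41 (SE 0.0814, adjusted p 0.00175). Of 16 copper genes 2 fell (12.5%, near the 11.4% over all features), SOD1 and FRE7. Of 18 hexose transporter genes 1 rose (5.56%), GAL2. Of 27 tested features named Unit, which the sources used here do not explain, 1 was higher and 1 lower (3.7% each).

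The fold changes depended on coding length. Among genes of up to 450 coding bases the median was -0.23, with 7 called higher and 132 lower of 577. It was 0.33 among the 592 genes over 2700 bases, with 233 called higher (39.4%) and 0 lower. With ribosomal protein genes left out, the shortest class still had a median of -0.18. The medians of long genes, centred on all 24 libraries, were -0.21, -0.13 and -0.29 in the CUP1-PHO92 libraries and 0.15, 0.017 and 0.17 in L35A. The part of length in the results above was not tested, but a length trend could be removed from each library. After that, 1007 features were called, 463 higher (8.13%) and 544 lower (9.55%), and 722 of the 1007 were among the 1290. Of the ribosomal protein genes 85 of 126 were lower, with a median of -0.67, and of the mitochondrial ones 47 of 75, with a median of -0.37. Respiratory chain genes, whose median coding length of 447 bases is close to the 430.5 of cytosolic ribosomal protein genes, then had 15 members higher. Trehalose and glycogen genes had 4 higher, mRNA decay factors 5 higher and 4 lower, and histones 1 higher and 1 lower. The shares of the decay factors and histones were then near those over all features. Of the named genes, RIM4, BNR1, BLM10, ATG2, RPN13, NRM1, RPS9A and RPS22A were no longer called. BNR1, RPS22A and RPS9A kept fold changes of 0.88, -0.85 and -0.74, with adjusted p of 0.0536, 0.0693 and 0.144, whereas BLM10 and ATG2 were at 0.146 and 0.026. IME4 was called lower (-0.25, adjusted p 0.0287). SUM1 and CAT8 were still called higher (0.338 and 0.411, adjusted p 0.00306 and 0.0114). Counts after the correction are not given here for the acetate and meiotic entry lists.

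**Figure D4:**
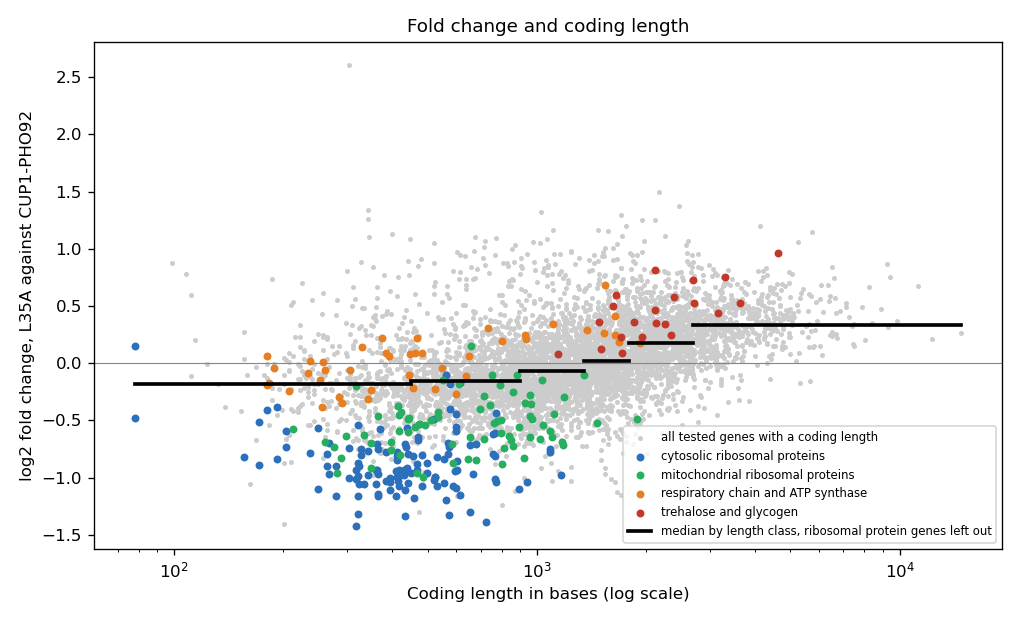
Log2 fold change of L35A against CUP1-PHO92 (y axis) by coding length in bases (x axis, log scale). Points are genes, with 4 lists coloured, and black bars are medians by length class without ribosomal protein genes. The medians climb from -0.18 to 0.33, the cytosolic ribosomal protein genes mostly lie below the bar of their class, and the respiratory chain genes of the same length lie around or above it.

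Promoters of 5 genes described above are shown as sequence, to set motif matches in single genes beside the shares in their lists. Each runs from 250 bases before the start codon to 50 bases from it, in R64, with motif matches in capitals. The motifs searched, on both strands, were AGGGG (the stress response element), GATGAG (the PAC core), GGCGGC (the URS1 core) and CACAAA (the middle sporulation element core). RPL30 (chrVII:438841-439140, plus strand), the largest fall, holds none of the 4 motifs, and RPS3 (chrXIV:302430-302729, plus strand) holds a PAC core. GDB1 (chrXVI:901794-902093, plus strand) is from the storage carbohydrate list, CAT8 (chrXIII:831280-831579, minus strand) from the acetate list, and MPC54 (chrXV:667130-667429, minus strand) is 1 of the 2 spore formation genes called.
RPL30: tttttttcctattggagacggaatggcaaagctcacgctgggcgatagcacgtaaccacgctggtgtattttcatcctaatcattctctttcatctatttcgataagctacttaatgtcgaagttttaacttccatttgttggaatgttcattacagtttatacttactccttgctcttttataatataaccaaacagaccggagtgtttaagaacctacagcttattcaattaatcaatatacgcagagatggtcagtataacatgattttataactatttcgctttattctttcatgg
RPS3: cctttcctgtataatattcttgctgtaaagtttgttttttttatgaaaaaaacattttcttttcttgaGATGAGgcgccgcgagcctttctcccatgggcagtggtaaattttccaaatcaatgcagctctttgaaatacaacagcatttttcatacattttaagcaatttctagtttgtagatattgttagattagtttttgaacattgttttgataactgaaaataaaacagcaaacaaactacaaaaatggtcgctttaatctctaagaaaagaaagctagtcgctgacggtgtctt
GDB1: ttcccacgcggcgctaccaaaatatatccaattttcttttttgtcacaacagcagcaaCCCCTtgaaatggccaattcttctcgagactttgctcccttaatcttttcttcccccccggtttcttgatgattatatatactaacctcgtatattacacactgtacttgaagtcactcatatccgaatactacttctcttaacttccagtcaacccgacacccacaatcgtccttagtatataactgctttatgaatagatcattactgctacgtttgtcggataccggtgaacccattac
CAT8: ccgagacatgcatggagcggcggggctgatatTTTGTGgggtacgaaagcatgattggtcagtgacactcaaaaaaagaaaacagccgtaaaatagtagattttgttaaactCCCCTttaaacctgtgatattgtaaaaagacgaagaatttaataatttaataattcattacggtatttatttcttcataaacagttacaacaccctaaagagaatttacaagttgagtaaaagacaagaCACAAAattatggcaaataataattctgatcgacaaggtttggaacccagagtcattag
MPC54: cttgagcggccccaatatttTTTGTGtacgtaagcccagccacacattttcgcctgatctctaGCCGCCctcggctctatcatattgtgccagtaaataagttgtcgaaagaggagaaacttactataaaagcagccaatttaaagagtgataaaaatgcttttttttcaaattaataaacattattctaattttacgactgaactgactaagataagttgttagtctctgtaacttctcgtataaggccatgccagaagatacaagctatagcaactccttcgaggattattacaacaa
The stress response element was in 172 of 637 promoters of genes called higher, 104 of 644 of those called lower (16.1%) and 22.0% of all 5489 promoters, and in 47.6% of the trehalose and glycogen list. The PAC core was in 12.2% of promoters of genes called higher, 174 of 644 of those called lower and 19.9% of all, and in 90.0% of the ribosome biogenesis list. The middle sporulation core was in 22.9%, 12.3% and 19.3%, and in 72.2% of the middle meiotic list. The URS1 core was in 5.34%, 3.57% and 4.81%. Cytosolic ribosomal protein promoters held the PAC core in 11.9% of cases, the stress response element in 15.9%, the middle sporulation core in 11.9% and the URS1 core in 5.56%, so the match in RPS3 is not typical of its list. In the acetate list the stress response element was in 28.9% and the middle sporulation core in 21.1%, beside 22.0% and 19.3% of all promoters. A match is a run of letters and not a bound site.

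Genes called between pho92Δ and WT were also read in L35A. Relative to WT, pho92Δ had 466 genes called higher (8.18%) and 540 lower (9.48%). Of the 466, 171 were higher in L35A than in CUP1-PHO92 (36.7%) and 16 lower (3.43%), with a median of 0.26. Over all features 11.3% were higher and 11.4% lower. Against CUP1-PHO92, 281 of the 466 were higher in Δ35–42, 330 in W177A, 338 in L38P and 2 in I39A. Over all 5698 features, 677, 847, 1316 and 3 were higher in these 4 strains. Against Δ35–42, L35A had a median of -0.18 for the 466, with 0 called. Of the other 539, with PHO92 left out, 78 were lower in L35A than in CUP1-PHO92 (14.5%) and 17 higher (3.15%), with a median of 0.0403. The share lower was near that over all features, and the share higher was below it. These lists come from WT and pho92Δ libraries, which this comparison does not use. The 17 became 43 without replicate 3 of L35A, 26 without replicate 2 of CUP1-PHO92 and 3 when any of the other 4 libraries was left out. The 78 became 51 without replicate 1 of L35A.

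Setting L35A directly against the other mutants of the stretch gave different amounts of change. Against Δ35–42, 3 features were called, all lower (0.0527%), while 1017 had an unadjusted p under 0.05. With the replicate number as a block, 386 were called (233 higher, 153 lower), so the small count does not show that these strains are alike. The 3 were YGL262W, COS12 and YPS6, which encodes a putative cell surface protease. YPS6 (YIR039C) had 63.56, 68.68 and 65.23 CPM in L35A, beside means of 126.3 CPM in Δ35–42 and 62.2 CPM in CUP1-PHO92. COS12 (YGL263W) had 3.992, 7.489 and 3.452 CPM in L35A and a mean of 17.8 CPM in Δ35–42. For all 3, L35A, CUP1-PHO92 and W177A had the lowest means of the 8 groups. Cytosolic ribosomal protein genes had a median of -0.63 against Δ35–42 with 0 of 126 called by edgeR without the block. Mitochondrial ones had a median of 0.00849.

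Against I39A, 36 features were called (0.632%), 6 higher (0.105%) and 30 lower (0.527%). The lower ones include 11 of 75 mitochondrial ribosomal protein genes, whose median was -0.34. MAM33 was lower than in I39A by a fold change of -0.73 (adjusted p 0.0179). AKR1, ACK1 and DBR1 led the rises (0.48, 0.44 and 0.41, adjusted p 0.0453, 0.0343 and 0.0466). The debranching enzyme gene DBR1 (YKL149C) had 64.08, 60.14 and 53.91 CPM in L35A and a mean of 44.76 CPM in I39A. The 36 became 1 without replicate 1 of L35A, 3 without its replicate 2, 18 without replicate 1 of I39A, and 1 without its replicate 2 or 3. Cytosolic ribosomal protein genes had a median of -0.51 with 0 of 126 called.

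Against L38P, 3099 features were called (54.4%), 1480 higher (26%) and 1619 lower (28.4%). Cytosolic ribosomal protein genes were lower in 124 of 126 cases, with a median of -2.25. Early meiotic genes were higher in 33 of 34, middle meiotic genes in 50 of 54 and proteasome genes in all 35, with medians of 1.07, 3.49 and 0.86. RPS9A (YPL081W) had 4.822, 3.606 and 6.784 CPM in L35A and a mean of 50.32 CPM in L38P. SPR2 (YOR214C), a spore wall gene, had 245.1, 626.8 and 123.8 CPM in L35A and a mean of 5.558 CPM in L38P. L35A and L38P differ in which leucine of the stretch is replaced and by what. The table's header puts replicate 2 of L38P in another batch than the other 5 libraries of this comparison, and without it 2529 features were called.

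**Figure D5:**
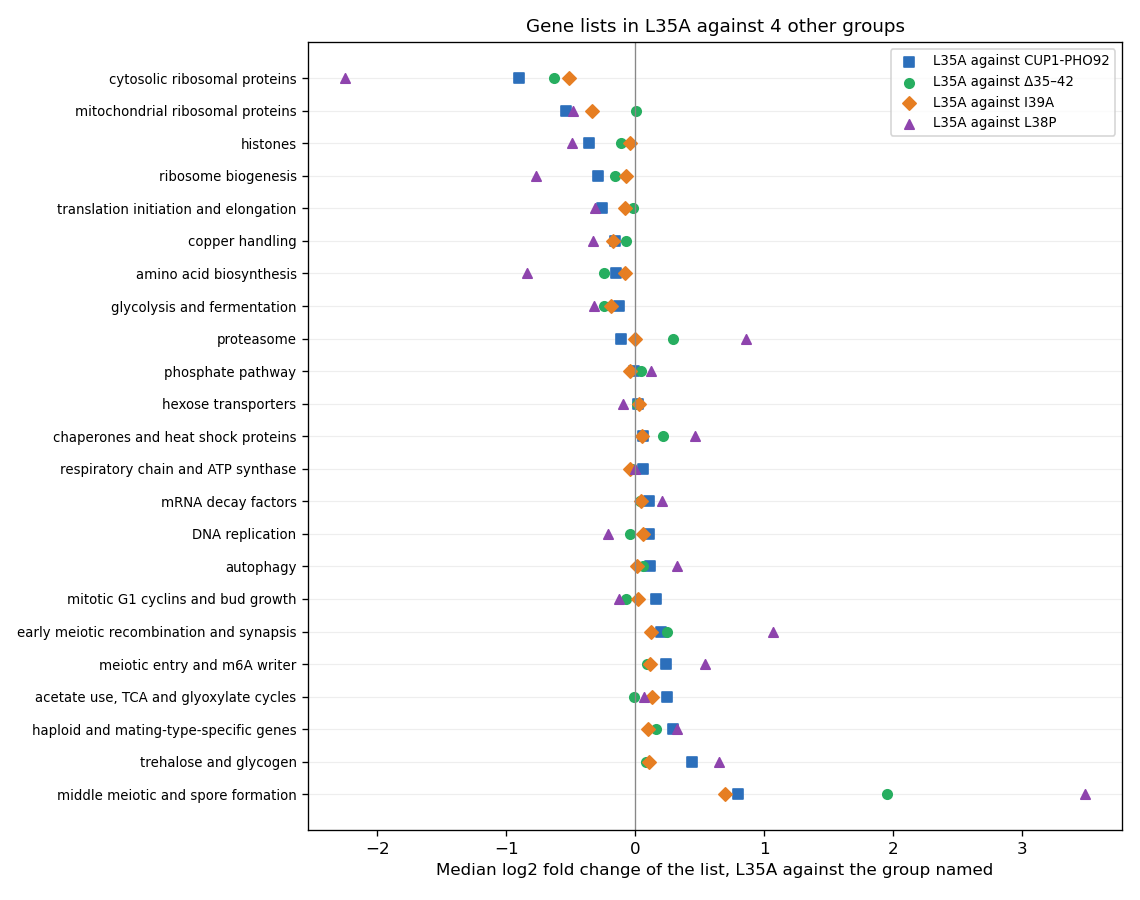
Median log2 fold change of each gene list (y axis) in L35A against 4 other groups (x axis; symbols). The medians against L38P reach -2.25 for cytosolic ribosomal protein genes and 3.49 for middle meiotic genes. For the same 2 lists they are -0.63 and 1.95 against Δ35–42. Medians against I39A run from -0.51 to 0.70. Comparisons share the L35A libraries.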

How the data were processed

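Polyadenylated RNA of 24 yeast cultures was sequenced, 3 libraries in each of 8 groups, with a directional paired-end protocol. The authors deposited raw counts per feature, without normalization, per the file headers; the values are whole numbers. The submitters' processing notes name STAR 2.7.10a, RSEM 1.3.1 and DESeq2 1.48.1, with no role; the build, annotation and strand setting are not given in the sources used here. RSEM estimates can be fractional, so the counts may have been rounded. Reads of antisense or overlapping genes may not be separated.

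Counts were analysed in R 4.3.3 with edgeR 4.0.16 (TMM, filterByExpr, glmQLFit, glmQLFTest), limma 3.58.1 and, as an alternative, DESeq2 1.42.0. The 6157 features include 5698 tested and 459 removed as low. The model had a mean for each of 8 groups and 16 residual degrees of freedom. Benjamini-Hochberg adjustment covered all features tested. An exact permutation test of 3 against 3 libraries cannot go below 0.1. The model was tested on simulated data. A first version missed its pass limit for recovery, and the dispersion and the limits were then revised, with no limit on changes below 2-fold, many of which were not recovered. Log2 CPM used a prior count of 2. Floors and totals cover counting error only.

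Groups follow the sample titles. The header lines put replicate 2 of L38P and replicate 1 of W177A in another batch, and all 6 libraries of the main comparison in the same one. They give W177A the strain number of CUP1-PHO92.

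The replicate numbers were checked for pairing from the correlation, across genes, of deviations from the group means. For L35A and CUP1-PHO92 it was 0.195, 0.403 and 0.181, and it was above 0.1 in all pairs with Δ35–42 and I39A. With L38P it was 0.156, -0.356 and -0.173. Libraries of different numbers were not compared, so this check cannot show whether the numbers pair the samples. The labels give no pairing. The main calls come from the fit without a replicate block. With the block, 1616 features were called against CUP1-PHO92 and 386 against Δ35–42.

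Named genes were PHO92, TRP1, CUP1-1, IME1, IME2, IME4 and NDT80, the 8 largest rises and falls among called genes with a mean of at least 10 CPM in the higher group and no overlap between groups, 1 rise and 1 fall per list, and 3 in each direction against the other mutants; 1 of the falls and 1 other called gene are not reported here, and others were named as sets of called members or after their values were seen. The members and lists were chosen with earlier results of these data known. Coding lengths and sequences came from RefSeq R64, which matched 5620 features.

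Alternatives were RLE scaling, no filter, a replicate block, a fit of the 6 libraries compared, DESeq2, a minimum fold change, a within-group covariate and leaving out each library. The covariate was derived from the same counts, so its calls are not independent support. A lowess trend on coding length (span 0.3), alone or with the block, was added after the data had been seen.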

Additional observations from a re-analysis of the deposited data

How the results depend on the processing

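No called named gene turned direction under any alternative run. The balance of calls did: against CUP1-PHO92 the 642 higher and 648 lower became 669 and 631 with RLE scaling, 720 and 544 without the filter, 776 and 698 with DESeq2, 991 and 969 with the covariate and 434 and 419 in the fit of 6 libraries. Against L38P, 1480 and 1619 became 1553 and 1542 with RLE scaling, 1599 and 1581 with DESeq2 and 1666 and 1610 with the coding length correction, and against Δ35–42, 0 and 3 became 233 and 153 with the block. Also, the median of the mRNA decay list became -0.011 and that of the DNA replication list -0.0149 with the coding length correction. Leaving out 1 library of the main comparison ended at least once the calls of ADH2, ARO9, DBP10, GAL2, HIS6, LSM7, MPT5, NEJ1, NRM1, RIM4, RPN13, RPS22A, RPS9A, RRT7, SIS1, UTP15 and YCK3. For L35A against CUP1-PHO92, the 1290 calls became 853 in the fit of the 6 libraries alone, 1960 with the within-group covariate and 65 at a minimum absolute log2 fold change of 1, and ranged from 707 to 1269 when a library was left out. Against Δ35–42, the 3 calls became 386 with the replicate block, 0 in the fit of 6 libraries, 357 with DESeq2, 664 with the covariate, 10 with the coding length correction and 519 with the block and that correction together. They ranged from 2 to 379 when a library was left out, the highest without replicate 3 of L35A. Against I39A, the 36 calls became 12 without the filter, 1 in the fit of 6 libraries, 101 with DESeq2, 174 with the covariate, 70 with the block and the length correction, and 1 at the minimum fold change, and ranged from 1 to 53 when a library was left out. The lowest values were without replicate 1 of L35A or replicates 2 or 3 of I39A. Against L38P, the 3099 calls became 706 at the minimum fold change and ranged from 2529 to 3166. The replicate block gave 1616 calls against CUP1-PHO92, 51 against I39A and 3329 against L38P, and changed no call of the 82 named gene results. The coding length correction ended 9 of those calls and the fit of 6 libraries 13. The cause of these shifts was not tested. Genes near the filter rest on few counts, and 3 libraries a group limit the precision of every comparison.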
